A study of Mus musculus with 10 samples.

Results

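Macrophages and the wider family of leukocytes were followed through 10 marker genes in RNA of osteoblasts, the bone-forming cells, from newborn mice. The genes were Csf1r, Cd68, Adgre1, Itgam, Cd14, Lyz2, Mrc1, C1qa, Fcgr1 and Ptprc, and every probe set that the platform annotation gives one of these names was taken. They have 14 of the 45101 probe sets on the array, and 12 of the 14 passed a filter on low signal. All 10 genes were tested among 11357 genes in all, of 18194 with a probe set of their own, each through its kept probe set of highest mean signal. Each value is a log2 signal, so a difference of 1 is a 2-fold difference, and levels of different probe sets cannot be set against each other.

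The study compared mice with osteoblast-specific genetic changes in β-catenin, the effector of Wnt signalling, and in FoxO1, a transcription factor of the insulin and stress response. The groups were wild-type mice (4 arrays), mice with osteoblast-specific constitutively expressed β-catenin (3 arrays, here called active β-catenin) and mice with osteoblast-specific FoxO1 deletion (3 arrays). All 10 samples carry the same background strain label, C5BL6, an age of 2 to 3 days, the tissue label osteoblasts and a sex given as undetermined. The promoter or Cre line behind the osteoblast-specific alleles, and whether RNA of several animals was pooled, are not given in the sources used here. The labels do not say how the samples were derived from separate animals or cultures, so the p-values below measure the spread between these samples, which may in part be technical.

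Foxo1 itself read 9.93 to 10.09 in wild type, 10.07 to 10.10 with active β-catenin and 9.80, 10.13 and 9.67 in FoxO1 deleted 1 to 3, a difference from wild type of -0.17 ± 0.11 (SE; adjusted p = 0.706 by limma) with overlapping arrays. The other kept Foxo1 probe sets, 1416981_at and 1416982_at, gave 0.05 ± 0.10 and 0.10 ± 0.15. The labels do not say which part of Foxo1 was deleted or which cells keep it, so these signals do not check the genotypes. FoxO1 deleted is used here as the name the labels give. Ctnnb1, the β-catenin gene, differed by -0.03 ± 0.09 with active β-catenin in its probe set of highest signal. Its other kept probe sets, 1430533_a_at and 1450008_a_at, gave -0.28 ± 0.15 and -0.34 ± 0.08 (adjusted p = 0.524 and 0.0946 by limma over all kept probe sets), the latter lower in every active β-catenin array than in every wild-type array. The 10 arrays had been scaled alike, with median log2 signals of 7.02 to 7.22. Wild type 1 and 2 correlated with each other at r = 0.990 over the tested genes and wild type 3 and 4 at r = 0.989, but arrays of different pairs at 0.971 to 0.973. Xist, the RNA that coats the inactive X chromosome of female cells, had log2 signals of 14.05 to 14.43 in wild type 3 and 4 and FoxO1 deleted 2 and 3, and of 5.91 to 8.96 in the other 6 arrays. FoxO1 deleted 3 correlated at 0.953 and 0.958 with the other arrays of its genotype. Of 10 osteoblast genes looked for, 7 had a probe set and all 7 were tested (Col1a1, Col1a2, Sp7, Alpl, Ibsp, Dmp1 and Phex). Their log2 signals ran from 10.92 (Sp7) to 15.82 (Col1a2) over the arrays, so these genes gave signal in every array. Passing the filter was common, with 11357 of 18194 genes, and does not by itself identify a cell type.

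Macrophages are phagocytes of the innate immune system that settle in nearly every tissue, and in bone some of them line the surfaces on which osteoblasts work. They, the blood monocytes and the bone-resorbing osteoclasts descend from myeloid progenitors that depend on the receptor CSF1R and the transcription factor PU.1, which is encoded by Spi1. Several of the markers are shared: Csf1r and Cd68 are also expressed by osteoclasts, Itgam and Lyz2 by neutrophils, Mrc1 by some endothelial cells, and Ptprc by leukocytes in general. The arrays measured whole samples, so fewer cells of a type and less RNA per cell cannot be told apart.

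PU.1 recognises a purine-rich core, GAGGAA, which reads TTCCTC on the opposite strand. This core was looked for on both strands in the 250 bases before the annotated start of each gene in RefSeq's promoter table (build GRCm38.p6). Windows of Cd68, Itgam, Lyz2, Mrc1, Fcgr1 and Ptprc were searched, and none were searched for Csf1r, Adgre1, Cd14 and C1qa. The search skipped any member entry on 1 chromosome, which the shares over all windows and genes include. Of the 6 genes searched, 5 held the core. The shares were 23.3% of all 32851 windows of that length and 25.9% of the 27025 genes with a window. Lyz2 held none, and Ptprc held 1, 158 bases before the upstream one of its annotated starts. A match of letters is a description of the sequence and not a measured binding site. The windows of 4 members are shown because they differ in the number and orientation of the cores and because these genes behave differently across the arrays below. The sequences run 5′ to 3′ on the strand of the gene and end at the base before the start, and capitals mark the core on either strand.
Itgam, chr7:128062390-128062639 (+): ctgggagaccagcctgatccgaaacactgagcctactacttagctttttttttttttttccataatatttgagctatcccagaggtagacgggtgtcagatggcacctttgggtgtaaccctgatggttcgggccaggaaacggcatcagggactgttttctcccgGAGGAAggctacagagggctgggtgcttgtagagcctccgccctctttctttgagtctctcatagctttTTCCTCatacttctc
Cd68, chr11:69666171-69666420 (-): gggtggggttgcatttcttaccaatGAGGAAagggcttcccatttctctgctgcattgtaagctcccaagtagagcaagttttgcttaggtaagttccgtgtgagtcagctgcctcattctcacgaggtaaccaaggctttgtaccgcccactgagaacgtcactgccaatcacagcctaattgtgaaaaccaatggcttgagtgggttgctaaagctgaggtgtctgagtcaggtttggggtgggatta
Mrc1, chr2:14229164-14229413 (+): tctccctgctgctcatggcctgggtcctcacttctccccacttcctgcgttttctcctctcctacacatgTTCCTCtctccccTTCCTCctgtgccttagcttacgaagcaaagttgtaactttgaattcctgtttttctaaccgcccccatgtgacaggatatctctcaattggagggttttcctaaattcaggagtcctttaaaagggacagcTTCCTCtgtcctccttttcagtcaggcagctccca
Fcgr1, chr3:96293970-96294219 (-): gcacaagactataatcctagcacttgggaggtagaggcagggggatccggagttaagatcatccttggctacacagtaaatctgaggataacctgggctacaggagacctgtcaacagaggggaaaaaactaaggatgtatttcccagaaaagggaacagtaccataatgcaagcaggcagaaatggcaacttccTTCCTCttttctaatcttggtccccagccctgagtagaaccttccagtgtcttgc
The Itgam window holds a forward core 84 bases and a reverse core 15 bases before the start. The Cd68 window holds 1 forward core, 225 bases before the start, and the Fcgr1 window 1 reverse core, 55 bases before it. In the Mrc1 window 3 reverse cores begin 180, 167 and 35 bases before the start.

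No member differed between genotypes after adjustment. With limma's moderated test and Benjamini-Hochberg adjustment over all 11357 genes (adjusted p under 0.05), 0 of 10 members were called with active β-catenin against wild type, 0 of 10 with FoxO1 deletion against wild type and 0 of 10 between the 2 altered genotypes. The same test called 0.784%, 0.0264% and 0.669% of all tested genes in those comparisons, so calls were rare among all genes. At an unadjusted p under 0.05, limma placed 1, 2 and 0 of the 10 members past the line, against 12.1%, 7.83% and 8.03% of all genes. A p that misses the threshold does not show that levels were equal, and the intervals below give the differences these arrays leave possible. The median difference over the 10 members was -0.09 with active β-catenin against wild type, -0.06 with FoxO1 deletion against wild type and -0.06 between active β-catenin and FoxO1 deletion, beside medians of 0.01, 0.00 and 0.00 over all genes. Arrays of the compared genotypes did not overlap for 0, 2 and 0 of the 10 members, against 14.0%, 9.03% and 9.54% of all genes. Members stood on both sides of 0 in each comparison: 5 above and 5 below, 4 above and 6 below, and 4 above and 6 below.

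**Figure D1:**
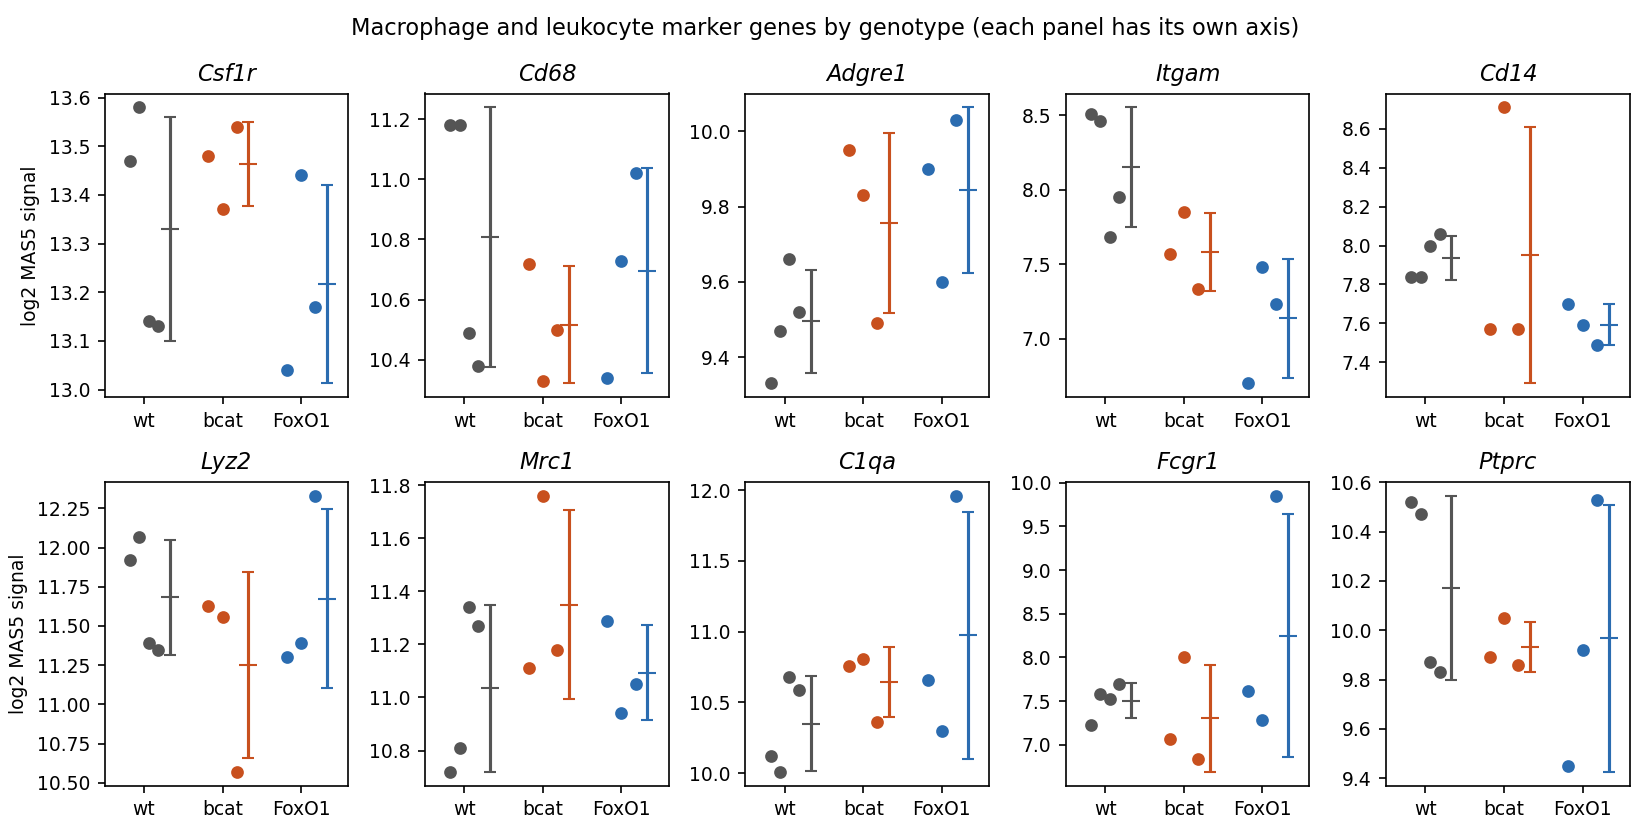
The log2 signal of each of the 10 marker genes (vertical axes, 1 panel per gene) in every array, grouped by genotype; points are single arrays and horizontal bars the genotype means. FoxO1 deleted 3 is the highest array for Fcgr1 at 9.85 and C1qa at 11.96, and the Itgam values of the FoxO1-deleted arrays, 6.70 to 7.48, all lie under those of wild type, 7.68 to 8.51.

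Itgam encodes the αM chain of the integrin Mac-1, which myeloid cells use to adhere and to take up complement-coated particles. Its log2 signals were 8.51, 8.46, 7.68 and 7.95 in wild type 1 to 4, 7.57, 7.85 and 7.33 with active β-catenin, and 6.70, 7.48 and 7.23 with FoxO1 deletion. Every FoxO1-deleted array was lower than every wild-type array, whereas the active β-catenin arrays overlapped both groups. The genotype means were 8.15 ± 0.40 (SD, n = 4), 7.58 ± 0.26 (n = 3) and 7.14 ± 0.40 (n = 3). FoxO1 deletion against wild type gave a difference of -1.01 ± 0.26 (SE; 95% interval -1.58 to -0.45), a level 2.02-fold lower, with an unadjusted p of 0.00227 and an adjusted p of 0.379 by limma. Active β-catenin against wild type gave -0.57 ± 0.26 (95% interval -1.13 to 0.00), with an adjusted p of 0.412 by limma. The order of the means was therefore wild type, active β-catenin and FoxO1 deleted, and no neighbours in it differed past the threshold.

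Itgam had the lowest unadjusted p of the 10 members. Only Itgam and Cd14 were lower in all FoxO1-deleted arrays than in all wild-type arrays, 2 of 10 members where 4.44% of all genes showed that separation. Itgb2, which encodes the β chain that pairs with the Itgam product, had log2 signals of 10.09, 10.04, 9.22 and 9.14 in the wild-type arrays, 9.29, 9.24 and 9.12 with active β-catenin, and 8.55, 9.43 and 9.54 with FoxO1 deletion. Its groups overlapped, and its differences from wild type were -0.41 ± 0.28 (adjusted p = 0.632 by limma) and -0.45 ± 0.28 (adjusted p = 0.703). Neutrophils also carry Mac-1, and their genes had lower values as well: the mean deviation of 7 tested neutrophil genes from their 10-array means was 0.72 to 1.85 over the wild-type arrays, -1.40 to -0.60 for active β-catenin and -2.20 to 0.64 after FoxO1 deletion. None of these 7 was called, and S100a8, a calcium-binding alarmin of neutrophils, differed by -2.55 ± 0.56 (adjusted p = 0.0702 by limma) and -2.19 ± 0.56 (adjusted p = 0.379) from wild type. The Pearson correlation of Itgam with S100a8 over the 10 arrays was 0.858 and with Itgb2 0.825, as a description of arrays that share genotypes. The part of neutrophils in the Itgam difference was not tested.

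Ptprc encodes CD45, a phosphatase on the surface of leukocytes. Its log2 signals were 10.52, 10.47, 9.87 and 9.83 in the wild-type arrays, 9.89, 10.05 and 9.86 with active β-catenin, and 9.45, 9.92 and 10.53 with FoxO1 deletion. The highest values, in wild type 1 and 2 and FoxO1 deleted 3, lie in different genotypes and the groups overlapped. The differences from wild type were -0.24 ± 0.24 (95% interval -0.77 to 0.29) with active β-catenin and -0.21 ± 0.24 (95% interval -0.74 to 0.32) with FoxO1 deletion. The interval bounds correspond to less than a 2-fold change of the pan-leukocyte signal in either direction. A further Ptprc probe set, 1440165_at, did not pass the filter on low signal and read 3.99 to 5.85.

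Csf1r encodes the receptor for the growth factors CSF1 and IL-34, which macrophages and osteoclast precursors need to survive. Its log2 signals were 13.47, 13.58, 13.14 and 13.13 in the wild-type arrays, 13.48, 13.37 and 13.54 with active β-catenin, and 13.04, 13.44 and 13.17 with FoxO1 deletion. The whole range over the 10 arrays, 0.54, was the smallest of the 10 members. The genotype means were 13.33 ± 0.23, 13.46 ± 0.09 and 13.22 ± 0.20 (SD). Active β-catenin differed from wild type by 0.13 ± 0.13 (95% interval -0.15 to 0.42) and FoxO1 deletion by -0.11 ± 0.13 (95% interval -0.40 to 0.17). The other kept probe sets of Csf1r, 1419873_s_at and 1423593_a_at, overlapped between all genotypes too, with differences of 0.03 and -0.08 for active β-catenin and -0.06 and -0.12 for FoxO1 deletion. The ligand gene Csf1, which osteoblasts themselves express, had 4 kept probe sets, and the one of highest signal differed by 0.14 ± 0.10 with active β-catenin and -0.08 ± 0.10 with FoxO1 deletion from wild type. The others did not all share these values: 1425155_x_at differed by 0.69 ± 0.25 and 0.72 ± 0.25, above wild type in every array of both genotypes (adjusted p = 0.302 and 0.531 by limma over all kept probe sets), 1448914_a_at by 0.42 ± 0.19 and 0.27 ± 0.19, and 1425154_a_at by 0.17 ± 0.23 and -0.11 ± 0.23. For FoxO1 deletion the Csf1 probe sets thus disagreed in sign, and none was called. For the probe set of highest signal, in active β-catenin the lowest Csf1 array, 11.01, lay just above the highest FoxO1-deleted one, 10.98, with a difference between these genotypes of 0.22 ± 0.11 (adjusted p = 0.660 by limma). The gene of the other ligand, Il34, did not pass the filter.

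Cd68 encodes a glycoprotein of the lysosomes of macrophages and osteoclasts. It read 11.18, 11.18, 10.49 and 10.38 in the wild-type arrays, 10.72, 10.33 and 10.50 with active β-catenin, and 10.34, 10.73 and 11.02 with FoxO1 deletion. All 3 groups overlapped, and the SD within wild type, 0.43, was larger than either difference from wild type, -0.29 ± 0.22 and -0.11 ± 0.22 (SE). Lyz2 encodes the M-type lysozyme, which cuts the cell walls of bacteria; its near-identical copy Lyz1 may not be separated by the array. It read 11.92, 12.07, 11.39 and 11.35 in the wild-type arrays, 11.63, 11.56 and 10.57 with active β-catenin, and 11.30, 11.39 and 12.33 with FoxO1 deletion. The lowest array, active β-catenin 3, and the highest, FoxO1 deleted 3, were 1.76 apart on the log2 scale. The Lyz2 differences were -0.43 ± 0.31 (95% interval -1.11 to 0.25) and -0.01 ± 0.31 (95% interval -0.69 to 0.67).

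Adgre1 encodes F4/80, the classical surface antigen of mouse tissue macrophages. It read 9.33, 9.47, 9.66 and 9.52 in the wild-type arrays, 9.95, 9.83 and 9.49 with active β-catenin, and 9.90, 9.60 and 10.03 with FoxO1 deletion. The means of the altered genotypes, 9.76 ± 0.24 and 9.84 ± 0.22, stood above that of wild type, 9.50 ± 0.14 (SD), with 1 array of each reaching into the wild-type range. The difference was 0.35 ± 0.14 with FoxO1 deletion (95% interval 0.04 to 0.65; unadjusted p = 0.0286, adjusted p = 0.618 by limma) and 0.26 ± 0.14 with active β-catenin (adjusted p = 0.502). Adgre1 and Itgam, both myeloid surface genes, thus had differences of opposite sign after FoxO1 deletion.

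Mrc1 encodes the mannose receptor CD206, a scavenger receptor of resident macrophages. It read 10.72, 10.81, 11.34 and 11.27 in the wild-type arrays, 11.11, 11.76 and 11.18 with active β-catenin, and 11.29, 10.94 and 11.05 with FoxO1 deletion. The groups overlapped, with differences from wild type of 0.31 ± 0.19 and 0.06 ± 0.19. Cd14 encodes the co-receptor that hands bacterial lipopolysaccharide to TLR4 and its partner MD-2, the product of Ly96. It read 7.84, 7.84, 8.0 and 8.06 in the wild-type arrays, 7.57, 8.71 and 7.57 with active β-catenin, and 7.70, 7.59 and 7.49 with FoxO1 deletion. All FoxO1-deleted arrays were below all wild-type arrays, by 0.34 on average (-0.34 ± 0.25; adjusted p = 0.761 by limma), a level 1.27-fold lower. Active β-catenin 2 stood above every other array, and the mean difference of active β-catenin from wild type, 0.02 ± 0.25, became -0.37 without it. Tlr4 and Ly96 overlapped between the genotypes, with differences of 0.13 ± 0.20 and -0.17 ± 0.18 for active β-catenin and 0.23 ± 0.20 and -0.17 ± 0.18 for FoxO1 deletion.

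C1qa encodes a chain of C1q, the recognition protein of the classical complement pathway, which macrophages secrete. It read 10.12, 10.01, 10.68 and 10.59 in the wild-type arrays, 10.76, 10.81 and 10.36 with active β-catenin, and 10.66, 10.30 and 11.96 with FoxO1 deletion. FoxO1 deleted 3 alone exceeded all others by more than 1. The FoxO1-deleted mean, 10.97 ± 0.87 (SD), differed from wild type by 0.62 ± 0.33 (95% interval -0.10 to 1.34; adjusted p = 0.654 by limma), and by 0.13 without FoxO1 deleted 3. The genes of the other C1q chains had the same high array. C1qb read 11.55 and C1qc 11.06 in FoxO1 deleted 3, against highest values of 10.43 and 10.02 elsewhere, both in active β-catenin 2. They differed from wild type by 0.60 ± 0.39 and 0.75 ± 0.36 with FoxO1 deletion. With active β-catenin the differences were 0.26 ± 0.39 and 0.42 ± 0.36. The other kept C1qb probe sets also peaked in FoxO1 deleted 3, at 10.67 and 11.45. The former was above every wild-type array in all FoxO1-deleted (0.70 ± 0.22) and all active β-catenin arrays (0.54 ± 0.22). The latter was so only for active β-catenin (0.52 ± 0.33), and none was called. Over the 10 arrays C1qa correlated with C1qb at 0.985 and with C1qc at 0.983, and at 0.942 and 0.938 without FoxO1 deleted 3.

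Fcgr1 encodes the high-affinity receptor for IgG, which signals through the chain encoded by Fcer1g. It read 7.22, 7.58, 7.52 and 7.70 in the wild-type arrays, 7.07, 8.0 and 6.84 with active β-catenin, and 7.62, 7.28 and 9.85 with FoxO1 deletion. A single array, FoxO1 deleted 3, set the range of 3.01, the widest of the 10 members. The FoxO1-deleted mean differed from wild type by 0.74 ± 0.52 (95% interval -0.39 to 1.88; adjusted p = 0.742 by limma), and by -0.06 without that array. Fcer1g also had its highest signal there, 11.43 against at most 10.61 elsewhere, and its mean differences from wild type were -0.12 ± 0.29 and 0.07 ± 0.29. The second Fcgr1 probe set, 1436625_at, did not pass the filter and read 5.14 to 7.35, with its highest value again in FoxO1 deleted 3.

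**Figure D2:**
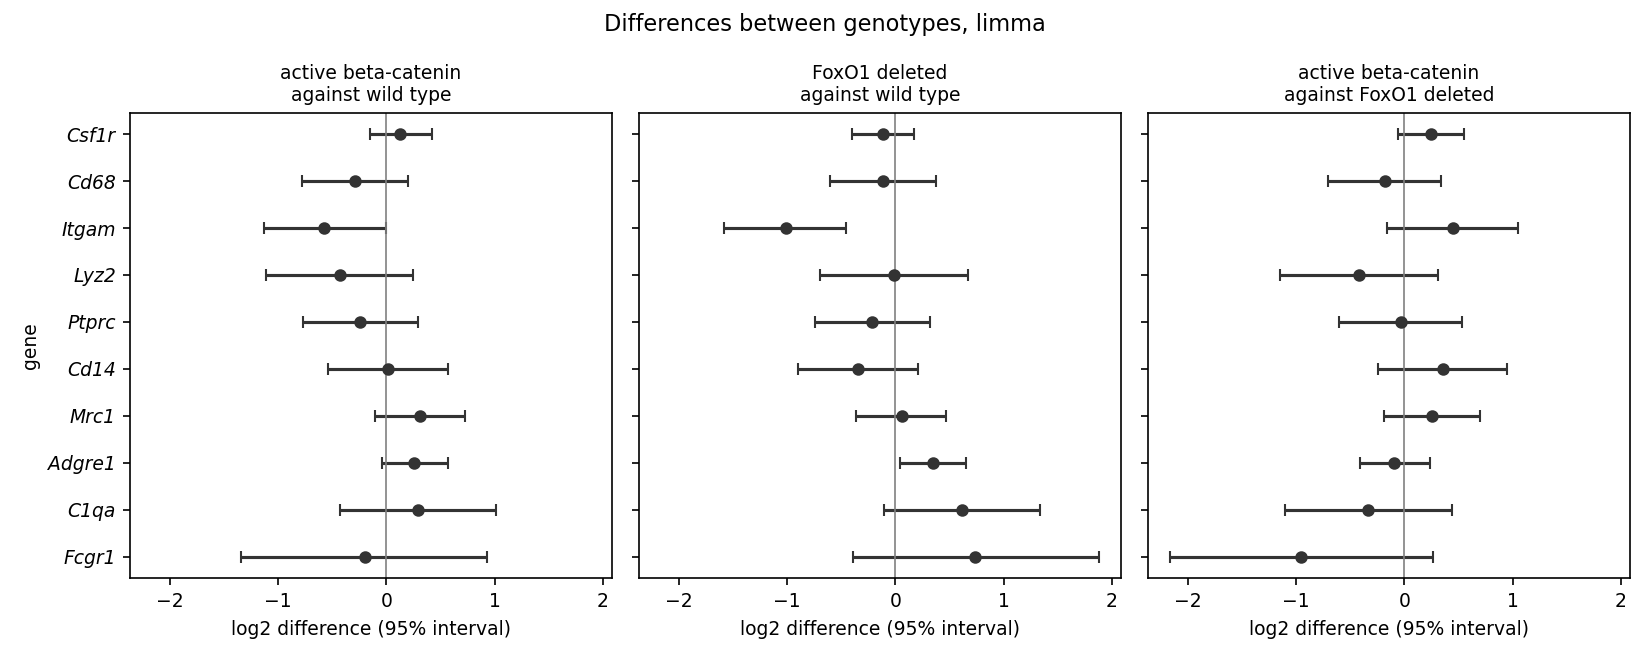
The log2 difference of each marker gene (horizontal axis, limma's estimate with its 95% interval) in the 3 comparisons of genotypes. The Itgam interval for FoxO1 deletion against wild type, -1.58 to -0.45, and the Adgre1 interval, 0.04 to 0.65, leave out 0 before adjustment, and no member passed the adjusted threshold.

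Within wild type the markers fell into opposing sets. Wild type 1 and 2 both exceeded wild type 3 and 4 for Cd68 (by 0.74 on average), Itgam (0.67), Ptprc (0.65), Lyz2 (0.62) and Csf1r (0.39). They were both below wild type 3 and 4 for C1qa (-0.57), Mrc1 (-0.54), Adgre1 (-0.19) and Cd14 (-0.19), and only Fcgr1 (-0.21) overlapped. Such complete separation of the pairs was common over all genes: 28.4% were higher and 22.8% lower in wild type 1 and 2. The pairs were seen in the values, so no test is given. The gap between the wild-type pairs was larger in size than the difference of genotype means for 9 of the 10 members with active β-catenin against wild type, all but Adgre1, and for 5 with FoxO1 deletion against wild type (Csf1r, Cd68, Lyz2, Mrc1 and Ptprc). Over all tested genes the pair gap was the larger for 52.8% and 54.9% in these comparisons, so the count for FoxO1 deletion lies near the background.

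Other myeloid genes showed both directions of the same gap. Of the 19 further macrophage genes tested, 6 were higher and 7 lower in wild type 1 and 2 without overlap, with a median gap of 0.05. The genes named next were picked for the size of their gaps, and Msr1 (0.07), Irf8 (0.05) and Ctss (-0.08) had almost none. Itgb2 was higher by 0.88 in wild type 1 and 2, Tyrobp, a signalling adaptor of myeloid receptors, by 0.77, Mpeg1, a pore-forming protein of macrophages, by 1.04, and Spi1 by 0.58. Folr2, Lyve1 and Cd163, which resident macrophages are known to express, stood at -1.27, -1.09 and -0.76, and C1qb and C1qc both at -0.58. The C1qb gap held only for its probe set of highest signal. In its other kept probe sets the pairs overlapped, at 9.17 and 9.53 against 9.12 and 9.71, and 9.32 and 9.75 against 9.53 and 9.67. The osteoclast list was higher in wild type 1 and 2 for 10 of 10 tested genes, with scores (mean deviations) of 0.45 and 0.48 against -0.12 and -0.20. The neutrophil list was higher for 7 of 7, with scores of 1.84 and 1.85 against 0.76 and 0.72, and the erythroid list for 5 of 5, with 1.33 and 1.47 against 0.44 and 0.26. The skeletal muscle list was lower for 6 of 6, with -0.62 and -0.64 against 0.51 and 0.48. The pairs also differ in Xist signal, as given above, and the part of these cell types and of sex in the marker values was not tested.

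**Figure D3:**
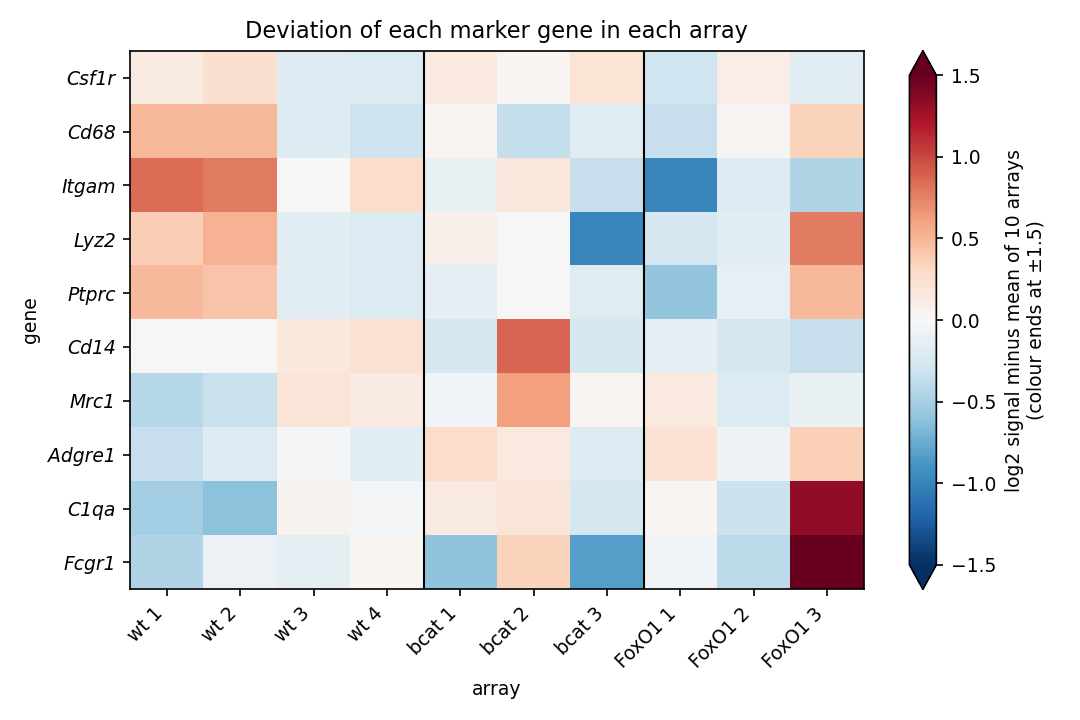
Deviation of each marker gene (rows) from its mean over the 10 arrays (columns), in log2 units by colour. Wild type 1 and 2 are above wild type 3 and 4 for Cd68, Itgam, Ptprc, Lyz2 and Csf1r and below them for C1qa and Mrc1, and FoxO1 deleted 3 has the highest value of 5 of the 10 genes.

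Correlations over all 10 arrays are given as a description, because the arrays share genotypes and pairs. Between the 5 members higher and the 4 members lower in wild type 1 and 2, 16 of 20 pairs correlated below 0, with r from -0.854 to 0.376, and the wild-type arrays that set the split are among those correlated. On the other side of 0 were Itgam and Cd14 (0.376), Lyz2 and C1qa (0.357), Lyz2 and Adgre1 (0.229) and Ptprc and C1qa (0.111). Without FoxO1 deleted 3 these pairs stood at 0.311, -0.310, -0.0933 and -0.699. Lyz2 and Cd14 then moved from -0.00999 to 0.230, and Ptprc and Cd14 from -0.0297 to 0.161. Cd68 correlated with Ptprc at 0.866, with Acp5, the tartrate-resistant acid phosphatase of osteoclasts, at 0.887, and with Mrc1 at -0.854. Without FoxO1 deleted 3, the value for Cd68 and Mrc1 was -0.874. Ptprc correlated with Tyrobp at 0.963 and with Itgb2 at 0.913, and Csf1r with Mmp9, a protease abundant in osteoclasts, at 0.859.

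FoxO1 deleted 3 had the highest value of all 10 arrays for 5 of the 10 members, Adgre1, Lyz2, C1qa, Fcgr1 and Ptprc, whereas it was the highest array for 15.0% of all genes. Against the mean of FoxO1 deleted 1 and 2 it was at least 2-fold higher for 2 members, Fcgr1 (by 2.40 on the log2 scale) and C1qa (1.48), as it was for 1.66% of all genes. Csf1r (-0.07), Mrc1 (-0.06), Itgam (0.14) and Cd14 (-0.15) were close to those arrays. Among 19 other macrophage genes tested, 6 were at least 2-fold higher in that array, among them Aif1 (2.61), Irf8 (2.33), Mpeg1 (2.20) and Cybb (1.71). Irf8 encodes a transcription factor of monocytes and dendritic cells, and Cybb the catalytic chain of the phagocyte oxidase. The score of the 10 members was 0.44 in FoxO1 deleted 3 and -0.30 to 0.20 in the other 9 arrays.

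Genes of MHC class II, which present peptides to helper T cells, stood apart most in the same array. Cd74, the invariant chain, read 11.51 in FoxO1 deleted 3 against 7.86 to 9.15 elsewhere, and H2-Aa read 12.07 against 8.41 to 10.34. All 4 tested class II genes were at least 2-fold above FoxO1 deleted 1 and 2, by 2.51 to 3.34. The class II score was 2.70 in FoxO1 deleted 3, 0.85 in active β-catenin 1 and -0.84 to -0.12 in the other 8 arrays. With 3 arrays in the group, none of the 4 was called with FoxO1 deletion against wild type. H2-Aa differed by 1.53 ± 0.64 (adjusted p = 0.633 by limma) and H2-Eb1 by 1.47 ± 0.66 (adjusted p = 0.637). For these 2 genes, as tested, every FoxO1-deleted array was above every wild-type array, where 9.03% of all genes separated in either direction. H2-Aa read 9.21 and 8.99 in FoxO1 deleted 1 and 2, against at most 8.80 in wild type. The other kept probe sets of H2-Aa overlapped between these genotypes. FoxO1 deleted 2 read 7.08 and 6.81 in them, against highest wild-type values of 7.10 and 7.43. Neutrophil, erythroid and osteoclast scores of FoxO1 deleted 3 were -0.45, -0.56 and 0.16, inside the range of the other arrays. Cd79b, the only lymphoid gene tested, was highest in FoxO1 deleted 3, at 7.38 against 5.88 to 7.37 elsewhere. It stood 0.87 above FoxO1 deleted 1 and 2. The part of this array's sampling in the C1qa and Fcgr1 means was not tested.

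**Figure D4:**
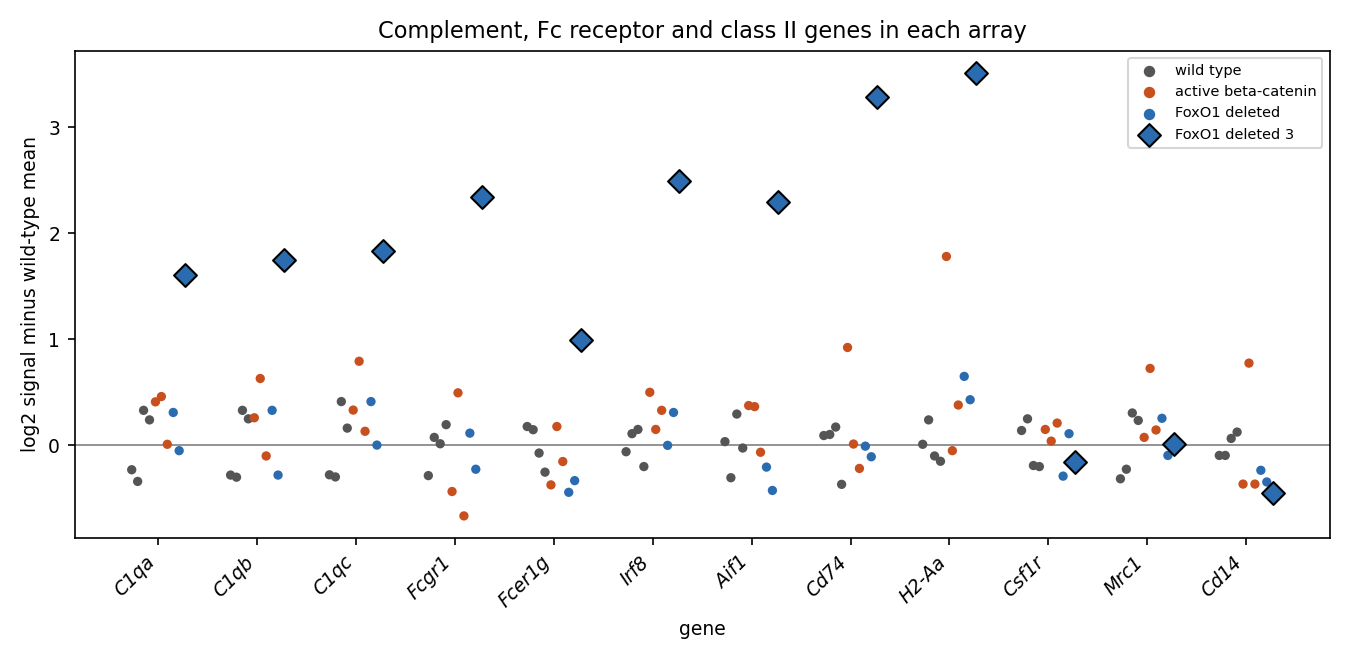
Log2 signal minus the wild-type mean (vertical axis) in every array for 5 of the markers and 7 related genes (horizontal axis); points are single arrays coloured by genotype and the diamond is FoxO1 deleted 3. That array lies above all others for C1qa, Fcgr1, Cd74 and H2-Aa, with log2 signals of 11.96, 9.85, 11.51 and 12.07, among them for Csf1r and Mrc1, and lowest for Cd14 at 7.49.

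The wider lists gave no call in any comparison by limma's adjusted p. Among 19 further macrophage genes the median difference was 0.01 with active β-catenin and 0.10 with FoxO1 deletion against wild type, near the 0.01 and 0.00 of all genes. The genes of smallest p there were Coro1a, an actin-binding protein of leukocytes, at -0.58 ± 0.18 (adjusted p = 0.176) and Clec4n, the lectin receptor dectin-2, at 0.55 ± 0.23 (adjusted p = 0.367) with active β-catenin. With FoxO1 deletion they were Coro1a at -0.48 ± 0.18 (adjusted p = 0.590) and Irf8 at 0.93 ± 0.47 (adjusted p = 0.651). Between the altered genotypes they were Cybb at -0.72 ± 0.42 and Ctss, the lysosomal protease cathepsin S, at 0.41 ± 0.24 (both adjusted p = 0.726).

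Lists of other cell types that such samples could hold were read in the same way. The 7 tested neutrophil genes had median differences of -2.51 with active β-catenin and -2.01 with FoxO1 deletion, and the 5 erythroid genes -2.07 and -1.07. All 7 neutrophil genes and 4 of the 5 erythroid genes were lower in every active β-catenin array than in every wild-type array, where 6.76% of all genes were. With FoxO1 deletion 4 of the 7 neutrophil and 1 of the 5 erythroid genes were lower in every array, where 4.44% of all genes were. Of the members, none showed that separation with active β-catenin, and Itgam and Cd14 did with FoxO1 deletion. Osteoclast genes, of the lineage nearest to macrophages, had medians of -0.31 and -0.24, with 10 of 10 and 9 of 10 below 0. Their smallest p belonged to Dcstamp, a fusion protein of osteoclast precursors, with active β-catenin (-0.61 ± 0.29; adjusted p = 0.436 by limma) and to Mmp9 with FoxO1 deletion (-0.50 ± 0.22; adjusted p = 0.636). Next by p were Atp6v0d2 with active β-catenin (-0.45 ± 0.25, adjusted p = 0.533 by limma) and Itgb3 with FoxO1 deletion. Itgb3 went the other way there, at 0.37 ± 0.19 (adjusted p = 0.651 by limma). Active β-catenin against FoxO1 deletion gave -0.70 ± 0.21 for Itgb3 and 0.44 ± 0.24 for Mmp9 (adjusted p = 0.282 and 0.706 by limma). Class II genes had medians of 0.35 and 1.31 against wild type, endothelial genes of 0.37 and 0.12, and osteoblast genes of 0.11 and 0.11. Of the lymphoid list only Cd79b, a chain of the B-cell receptor, was tested (-0.99 ± 0.33 and -0.23 ± 0.33), 5 mast cell genes had medians of -0.52 and -0.41, and no gene of the monocyte list passed the filter. Ptprc, Csf1r and Cd68 differed from wild type by -0.29 to 0.13 in the same comparisons. Over all 10 members the differences were wider, from -0.57 (Itgam) to 0.31 (Mrc1) with active β-catenin. With FoxO1 deletion they ran from -1.01 (Itgam) to 0.74 (Fcgr1). The difference between the members and the lists was not tested.

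**Figure D5:**
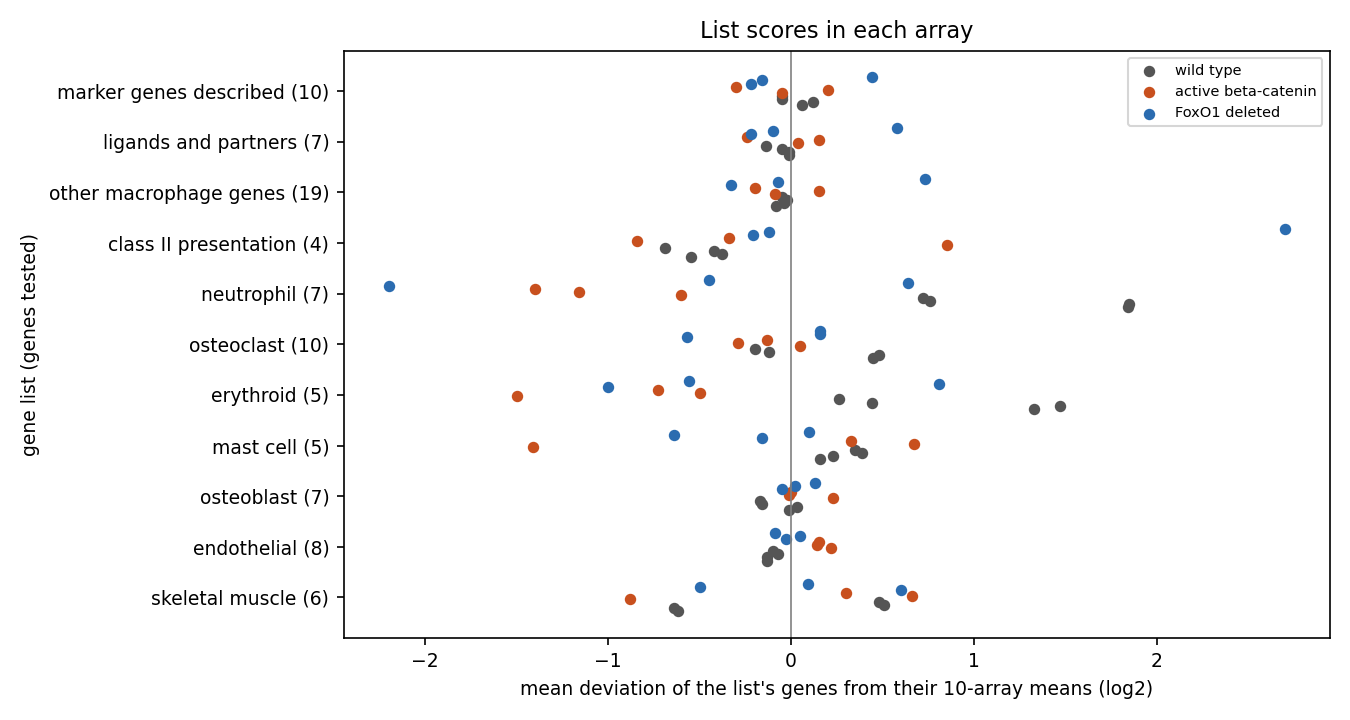
Score of each gene list (mean log2 deviation of its tested genes from their 10-array means) in each array, coloured by genotype. Neutrophil scores span -2.20 to 1.85 and class II scores reach 2.70 in FoxO1 deleted 3. The score of the 10 marker genes lies between -0.30 and 0.44 and averages genes that differ in opposite directions. Single markers range over 0.54 (Csf1r) to 3.01 (Fcgr1) between arrays.

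The genes whose pattern over the 10 arrays was most like the mean of the 10 members were Slfn2 (Pearson r = 0.935), Ube2l6 (0.925), Myd88 (0.921), Plek (0.902) and Cebpb (0.901), out of 11347 genes ranked. Myd88 encodes the adaptor of Toll-like receptors, Plek a protein kinase C substrate of platelets and leukocytes, and Cebpb a transcription factor of myeloid cells. Each of the 5 had its highest value in FoxO1 deleted 3, for example Slfn2 with 10.03 against at most 8.74 elsewhere. For Slfn2, Ube2l6, Myd88 and Plek the lowest array was active β-catenin 3, as it was for Lyz2 and Fcgr1.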

How the data were processed

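Osteoblast RNA of 10 samples (wild type 4, active β-catenin 3, FoxO1 deleted 3) was hybridised as biotin-labelled cRNA from 500 ng of total RNA to Affymetrix arrays, per the labels' protocols. The authors' deposited values are log2 signals; MAS5 is named in the submitters' processing notes, without a version. On the linear scale each array has a 2% trimmed mean of 499.99 to 500.01, as seen in the values.

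Probe sets were named through GEO's platform annotation: 34958 list 1 gene, 932 several and 9211 none, and 99.4% of the first kind matched RefSeq. Those with 1 gene were kept if the third-highest of the 10 values exceeded the table's median, 7.15. Each gene was taken by its kept probe set of highest mean. limma 3.58.1 in R 4.3.3 fitted 1 mean per genotype over all 10 arrays (7 residual degrees of freedom, eBayes with trend), two-sided, with Benjamini-Hochberg adjustment over 11357 genes at 0.05; the script was checked on simulated data. The number of arrays limits the precision. Intervals are 95% intervals of limma's unadjusted estimate.

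The members and gene lists were chosen with earlier results of these data known. Named genes are the members, their ligands, receptors and chains, and the 5 genes most correlated with the mean of the members. From other lists, genes among the 2 of smallest p per comparison are named. Not every such gene of the neutrophil and class II lists is given, and for the lists farthest from macrophages no such gene is. Genes named for gaps between arrays and for correlations were picked after their values were seen. The alternatives were other filters, normalizations and choices of probe set, values shifted by 16 before log2, fits restricted to the compared genotypes, a block for replicate number, no variance trend, averaged wild-type pairs, Xist signal as a term, and each array left out.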

Additional observations from a re-analysis of the deposited data

Results flagged for a closer look

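The probe set 1440165_at of Ptprc read 5.55, 3.99, 5.74 and 5.85 in the 4 wild-type arrays, and wild type 2 lay far below the others: its gap to the nearest was 0.839 of the group's range, above Dixon's limit for 4 samples. The probe set did not pass the filter on low signal and entered no comparison, and the kept probe set of Ptprc read 10.47 in the same array. It was 1 of 14 marker probe sets looked at in wild type, and chance alone marks about 1 group in 20.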

How the results depend on the processing

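No member was called under any of the 12 other settings or when each of the 10 arrays was left out in turn. The median member difference, -0.09, -0.06 and -0.06, did not keep its sign: with single arrays left out it ranged from -0.25 to 0.06 (active β-catenin against wild type), -0.18 to 0.06 (FoxO1 deletion against wild type) and -0.17 to 0.19 (active β-catenin against FoxO1 deletion). Itgam with FoxO1 deletion stayed between -1.19 and -0.80 with single arrays left out, adjusted p 0.284 to 0.888, and between -1.08 and -0.94 under the other settings, adjusted p 0.381 to 0.999.

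Differences of single members, none of them called, changed sign in 28 cases, among them Fcgr1 with FoxO1 deletion from 0.74; the cause was not tested. For active β-catenin against wild type, Cd14 was -0.01 after quantile normalization, and with Xist as a term Cd14 was 0.00 and Fcgr1 0.13; with arrays left out Cd14 ranged from -0.37 to 0.21 and Fcgr1 from -0.55 to 0.03. For FoxO1 deletion against wild type, Lyz2 was 0.03 with arrays shifted to the same median and 0.01 with the Xist term; with arrays left out Lyz2 ranged from -0.34 to 0.18, Cd68 from -0.27 to 0.07, Mrc1 from -0.05 to 0.16, Fcgr1 from -0.06 to 1.23 and Ptprc from -0.49 to 0.05. For active β-catenin against FoxO1 deletion, C1qa was 0.16 with the Xist term; with arrays left out C1qa ranged from -0.67 to 0.16, Adgre1 from -0.21 to 0.05, Cd14 from -0.02 to 0.55 and Ptprc from -0.29 to 0.25.

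The background of called genes, 89, 3 and 76, moved more: it was 9, 0 and 49 with wild-type pairs averaged, 10, 2 and 6 with the Xist term, 141, 1 and 25 with only the groups compared, 64, 5 and 64 without a variance trend, and 91, 5 and 71 after quantile normalization. Replicate numbers did not pair the samples, as judged by each array's deviations from its genotype mean. Between genotypes these deviations correlated at -0.287 to 0.29 for same-numbered arrays and at -0.311 to 0.32 for differently numbered ones. With the replicate block 15, 0 and 22 genes and 0 members were called, and Itgam with FoxO1 deletion was -1.08 (adjusted p = 0.567 by limma). Leaving out single arrays gave 31 to 130, 0 to 7 and 29 to 62 genes.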
